A study of Homo sapiens with 12 samples.

Results

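The change that prexasertib brought about in the ovarian carcinoma line PEO1 was measured across all genes, by setting the 3 PEO1 libraries given 20 nM of the drug against the 3 PEO1 libraries given DMSO. These 6 libraries were taken by their labels from 12 in the series, and the other 6 are the same pair of treatments in a second ovarian carcinoma line, COV362, used here for comparison only. All 12 libraries are labelled as parental cells, and both lines were grown in DMEM with fetal bovine serum and insulin. The vehicle was DMSO in all control libraries, how long the cells were exposed is not stated in the labels, and each line is a single cell line. PEO1 is known as a BRCA2-mutant line from an ovarian carcinoma, and prexasertib inhibits the checkpoint kinase CHK1 and, less strongly, CHK2.

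CHK1 is switched on by the kinase ATR where DNA replication stalls, and it restrains origin firing and entry into mitosis by marking CDC25 phosphatases for destruction. Cells that lose CHK1 activity can fire origins too freely, break stalled forks and enter mitosis with damaged or unreplicated DNA. DNA damage and cell stress are known to switch on p53 targets, AP-1 factors, NF-kB and interferon-type genes.

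Each PEO1 library held 15541151 to 18260493 counts. At least 1 count was found for 15751 to 16308 genes in the DMSO libraries and for 16418 to 17700 with the drug. The 8 epithelial and ovarian carcinoma markers were all detected, at a summed level of 6642 to 7756 CPM (counts scaled to 1e6 per library) in DMSO, and 5 of them were lower with the drug, when the sum was 3527 to 4108 CPM. The 12 immune markers summed to 4.11 to 5.32 CPM in DMSO and 3.08 to 5.07 CPM with the drug. Of the 3 that were tested, CD14 was called lower and ITGAM higher, named because they were the only calls. CD14 went from a mean of 4.27 to 1.37 CPM (log2 -1.64), and its call was lost without DMSO replicate B or prexasertib replicate B. The T and B cell genes CD3D, CD2 and MS4A1 were at 0 counts in both groups, and CD3E, PTPRC, FCGR3A and NKG7 were at 0 in DMSO. Summed fibroblast markers went from 224 to 296 CPM in DMSO to 64.5 to 81.6 CPM, endothelial markers from 6.49 to 7.57 to 1.70 to 4.59 CPM, and mesothelial markers from 48.6 to 53.8 to 20.2 to 26.3 CPM. THY1 made up a mean of 248 CPM of the fibroblast sum and CDH5 6.56 CPM of the endothelial sum in DMSO, and both were lower. PDGFRA and TEK, at 0 counts in DMSO, were called higher. THY1, CDH5, PDGFRA and TEK were named after their values were seen. The part of other cell types in the results was not tested.

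About as many genes rose as fell, and the large changes were mostly increases. Of 14498 genes tested, 4249 (29.3%) were called, meaning that edgeR's quasi-likelihood p stayed under 0.05 after Benjamini-Hochberg (BH) adjustment over all of them. Prexasertib raised 2136 (14.7%) and lowered 2113 (14.6%). A change of at least 2-fold was reached by 969 genes called higher and 726 called lower, one of at least 4-fold by 318 and 71, and one of at least 8-fold by 169 and 20. The median log2 fold change over all genes tested was 0.01. Scaling of the libraries (TMM) centres the bulk of genes near no change. This median and the balance of calls therefore cannot show a shift in total RNA. The 3 drug libraries all lay above the 3 DMSO libraries in 3631 genes (25.0%) and all below in 3629 (25.0%), and 25 called genes had groups that overlapped. The number called higher fell to 1358 without PEO1 DMSO replicate A, 1397 without DMSO replicate B, 1422 without DMSO replicate C and 1376 without prexasertib replicate B.

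**Figure D1:**
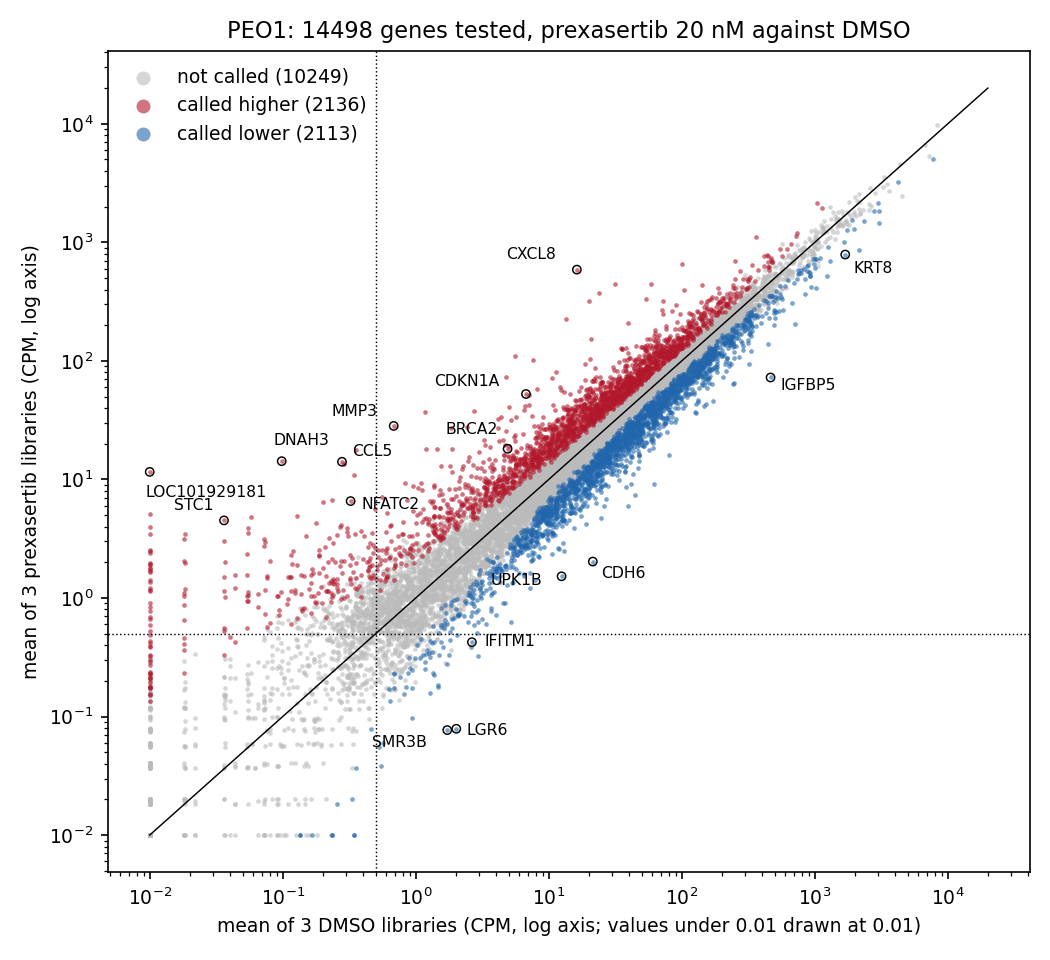
Mean level of each tested gene in the 3 PEO1 DMSO libraries (x axis, CPM, log axis) against the 3 prexasertib libraries (y axis, CPM, log axis), with called genes in red (higher) and blue (lower) and the 0.5 CPM limit dotted. CXCL8 stands out at a mean of 589 CPM from 16.3 CPM, and most points far from the diagonal lie above it.

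The direction of change followed the base composition of the transcripts. Among 2146 genes whose longest annotated transcript is under 40% GC, 553 were higher and 37 lower, whereas among 1846 genes of 60% GC or more 48 were higher and 628 lower. The median log2 change ran from 0.34 in the first class to -0.56 in the last, and Spearman's rho over the 13706 tested genes with a GC value was -0.41 in PEO1 and 0.19 in COV362, across genes that are not independent replicates. Every one of the 9 pairings of a drug library with a DMSO library gave a negative rho, from -0.51 to -0.23. Libraries of the same treatment also differed along GC, with rho of 0.38 for DMSO A against B and -0.40 for prexasertib B against C. Fitting each library's trend with GC and exon length and removing it, a correction chosen after the trend was seen, left 2473 genes higher (17.1%) and 2566 lower (17.7%). Of the 4249 calls, 3259 were also made with this correction and none in the opposite direction. It removes any part of the drug's effect that follows GC, and the part of GC in the single results below was not tested.

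**Figure D2:**
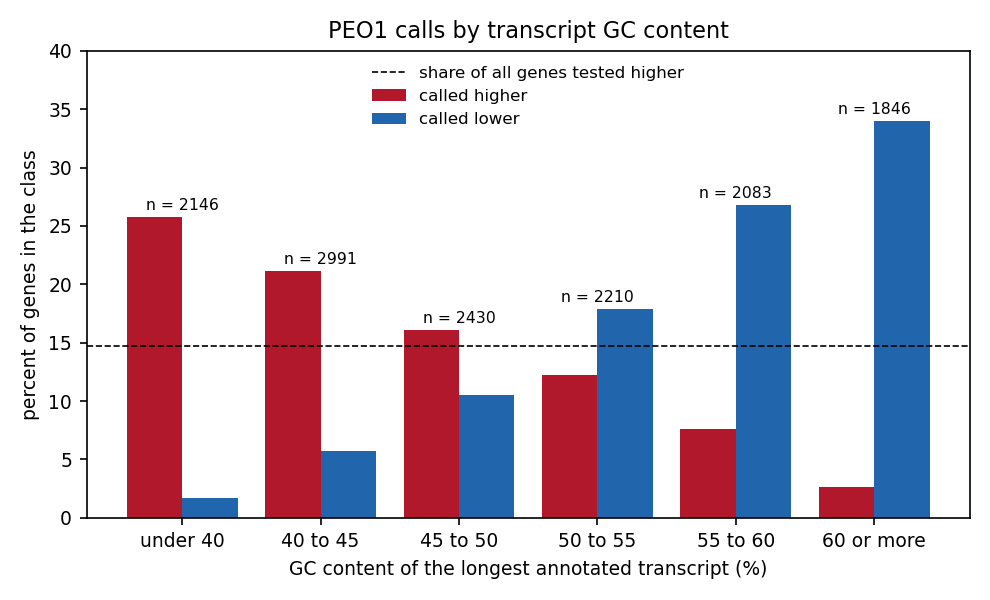
Share of tested genes called higher (red) and lower (blue) in PEO1 by the GC content of the longest annotated transcript, with the number of genes in each class above its bars. The share called lower goes from 1.72% in the class under 40% to 34.0% in the class of 60% or more.

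Signals that recruit and alert immune cells were among the largest increases. CXCL8, the chief neutrophil-attracting chemokine (chr4:73740506-73743716, plus strand, hg38), read 10.97, 17.3 and 20.6 CPM in DMSO replicates A, B and C and 664, 526 and 576 CPM with prexasertib. Every drug library lay far above every DMSO library. Its log2 change was 5.17 ± 0.27 (SE), or 36.1-fold (adjusted p = 4.73e-08). The related neutrophil chemokines CXCL3 and CXCL2 rose from means of 0.234 and 1.37 CPM to 2.14 and 5.85 CPM, with log2 changes of 3.16 and 2.10. The call of CXCL2 was lost without DMSO replicate B (log2 1.80, adjusted p = 0.0757), prexasertib replicate A (1.78, adjusted p = 0.0694) or prexasertib replicate C (1.99, adjusted p = 0.0518). In all, 3 of the 4 tested neutrophil chemokines were higher.

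Of the chemokines for lymphocytes, monocytes and dendritic cells, the 4 that rose were off or nearly off in DMSO. CCL5, which draws T cells and monocytes, was at 0.131, 0.651 and 0.0550 CPM in DMSO and at 19.7, 11.3 and 11.3 CPM with prexasertib (log2 5.58 ± 0.51, adjusted p = 7.62e-06). The interferon-induced CXCL10 (chr4:76021116-76023536, minus strand) went from 0.261, 0.217 and 0.0550 CPM to 4.64, 4.95 and 3.20 CPM. Its neighbour CXCL11, which binds the same receptor, had 0 counts in the DMSO libraries and 180 in the drug libraries, at least 60.1-fold higher when DMSO is set to a floor of 3 counts for the whole group. CCL20, the ligand of CCR6, rose from a mean of 0.127 to 4.90 CPM. CCL2, a monocyte chemokine, moved the other way, from 3.66, 2.88 and 2.20 CPM to 0.411, 0.330 and 0.785 CPM (log2 -2.51 ± 0.43, adjusted p = 0.000904), and was named after its value was seen. Of 11 tested members of this list, 4 were higher and 1 was lower.

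Among interleukins and colony-stimulating factors 5 of 15 tested rose and 1 fell. IL1A, an alarm cytokine of epithelial cells, read 1.83, 1.57 and 2.25 CPM in DMSO and 17.2, 16.9 and 20.2 CPM with the drug (log2 3.26 ± 0.30). IL11 rose by 3.46 on the log2 scale, and IL32 by 1.87. Of the NF-kB subunits and feedback genes 7 of 20 were higher and 1 was lower. TNFAIP3, which codes for the feedback inhibitor A20, rose from 19.3, 18.0 and 18.8 CPM to 91.5, 98.0 and 95.5 CPM (log2 2.35 ± 0.26, adjusted p = 3.95e-05). TRAF1 and CYLD, an adaptor and a deubiquitinase of the same pathway, rose by 2.62 and 1.56. With the GC and length correction 11 members were higher and 0 lower.

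PTGS2, the inducible cyclooxygenase that makes prostaglandin precursors (chr1:186671812-186680427, minus strand), was at 0.326, 1.303 and 1.87 CPM in DMSO and 35.4, 41.5 and 34.5 CPM with prexasertib. The groups were far apart, and the log2 change was 4.95 ± 0.39 (31.0-fold, adjusted p = 2.79e-06). PTGER4, a receptor for prostaglandin E2, rose by 2.14, while PTGES, which makes prostaglandin E2, fell by 1.23. MMP3, a matrix-degrading protease, went from 0.849, 0.814 and 0.385 CPM to 29.3, 27.3 and 28.2 CPM (log2 5.37 ± 0.47).

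Antiviral genes that interferon normally induces changed unevenly. RSAD2, which codes for viperin (chr2:6877665-6898232, plus strand), had 15.7, 24.5 and 20.0 CPM in DMSO and 322, 322 and 311 CPM with the drug. IFIT2, an RNA-binding inhibitor of translation, had 28.3, 34.0 and 32.2 CPM against 454, 445 and 430 CPM. Both increases were many times the spread between replicates, at log2 3.99 ± 0.21 (adjusted p = 4.73e-08) and 3.82 ± 0.16 (adjusted p = 5.81e-09). OASL rose by 2.86, IFIT3 by 2.39 and ISG15 by 1.36. Of 35 tested interferon-stimulated genes 11 were higher and 3 lower, with a median log2 change of 0.63, and 15 and 5 with the GC and length correction. IRF1 (log2 -0.31) and MX1 (0.37) were not called, and this pair, IFIT3 and ISG15 were chosen after their values were seen. IFNB1, the interferon beta gene, had 0 counts in all 6 PEO1 libraries. IFITM1, a membrane-bound antiviral protein that is not in the counted list, fell from 2.42, 3.04 and 2.47 CPM to 0.470, 0.440 and 0.362 CPM (log2 -2.62 ± 0.27).

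Ligands of NKG2D, the receptor by which NK cells recognise stressed cells, rose in 6 of the 8 tested and fell in 0. RAET1L (chr6:150020130-150025532, minus strand) was at 0.326, 0.434 and 0.110 CPM in DMSO and at 12.6, 13.2 and 14.8 CPM with prexasertib (log2 5.51 ± 0.43, adjusted p = 2.46e-06). ULBP2 went from 2.28, 1.79 and 2.25 CPM to 11.04, 9.18 and 8.81 CPM. ULBP3 rose by 1.47, and RAET1G (log2 2.43) was not called, a value looked up after the list was counted. These genes are similar in sequence, so the split of reads between them is uncertain. With the GC and length correction 5 were called higher.

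Promoter sequences are shown for 6 of the rising genes. Those of CXCL8, CXCL10, RSAD2, RAET1L and PPP1R15A match a known site of AP-1, CREB and ATF, NF-kB or interferon-responsive factors. That of PTGS2 holds no match to the spellings searched for these sites, and sites spelled otherwise were not searched. The 6 were not drawn at random. Other rising genes such as CXCL2, CCL20 and IFIT3 had such a match, whereas EGR1, CDKN1A and MAOA had no match of any kind. ATF3, FOS, FOSB and DHRS2 matched only the start-site box or the CCAAT box, both defined below. They come from RefSeq on GRCh38.p14 and run from 250 bases before the annotated start to 50 after it, and 11430 of the 14498 tested genes had such a window. RSAD2 has several starts, and the window that overlaps the start of the gene in the counts table is shown. Capitals mark every match, on either strand, to a site for AP-1, spelled TGANTCA, the cyclic AMP response element CRE, spelled TGACGTCA, a site for NF-kB, spelled GGNNTTTCC, the interferon-stimulated response element known as ISRE, the start-site box spelled TATAAA, the upstream box named CCAAT by its letters, and a site for E2F, spelled TTTNNCGC. In these 6 windows no match overlapped another.
CXCL8, chr4:73740319-73740618, plus strand: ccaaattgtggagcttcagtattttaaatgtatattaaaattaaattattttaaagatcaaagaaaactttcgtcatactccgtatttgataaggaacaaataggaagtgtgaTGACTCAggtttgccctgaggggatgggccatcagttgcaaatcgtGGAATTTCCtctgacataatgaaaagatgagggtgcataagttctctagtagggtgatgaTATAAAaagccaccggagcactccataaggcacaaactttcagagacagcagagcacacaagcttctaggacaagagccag
CXCL10, chr4:76023448-76023747, minus strand: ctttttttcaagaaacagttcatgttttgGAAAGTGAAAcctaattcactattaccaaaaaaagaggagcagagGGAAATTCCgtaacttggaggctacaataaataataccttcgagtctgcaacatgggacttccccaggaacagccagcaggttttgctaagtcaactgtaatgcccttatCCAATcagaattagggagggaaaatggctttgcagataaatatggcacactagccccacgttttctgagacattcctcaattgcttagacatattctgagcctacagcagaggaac
RSAD2, chr2:6877527-6877826, plus strand: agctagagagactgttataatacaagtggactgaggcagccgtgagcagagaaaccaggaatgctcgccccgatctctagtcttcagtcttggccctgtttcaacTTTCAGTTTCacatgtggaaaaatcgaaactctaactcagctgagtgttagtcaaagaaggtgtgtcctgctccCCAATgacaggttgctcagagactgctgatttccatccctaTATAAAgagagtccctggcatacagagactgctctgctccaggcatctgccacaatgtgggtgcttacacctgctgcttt
RAET1L, chr6:150025483-150025782, minus strand: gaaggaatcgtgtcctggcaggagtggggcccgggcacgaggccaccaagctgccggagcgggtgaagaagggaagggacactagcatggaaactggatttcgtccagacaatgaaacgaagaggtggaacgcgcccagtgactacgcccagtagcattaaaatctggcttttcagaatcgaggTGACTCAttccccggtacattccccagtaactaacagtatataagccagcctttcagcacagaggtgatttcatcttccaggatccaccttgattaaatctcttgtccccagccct
PTGS2, chr1:186680374-186680673, minus strand: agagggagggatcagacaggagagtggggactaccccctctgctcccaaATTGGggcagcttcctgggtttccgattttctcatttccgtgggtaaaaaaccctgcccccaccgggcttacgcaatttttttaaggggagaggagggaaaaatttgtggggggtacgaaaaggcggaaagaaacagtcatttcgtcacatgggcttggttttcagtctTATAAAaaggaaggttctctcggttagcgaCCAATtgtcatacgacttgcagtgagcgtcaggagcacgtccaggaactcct
PPP1R15A, chr19:48872171-48872470, plus strand: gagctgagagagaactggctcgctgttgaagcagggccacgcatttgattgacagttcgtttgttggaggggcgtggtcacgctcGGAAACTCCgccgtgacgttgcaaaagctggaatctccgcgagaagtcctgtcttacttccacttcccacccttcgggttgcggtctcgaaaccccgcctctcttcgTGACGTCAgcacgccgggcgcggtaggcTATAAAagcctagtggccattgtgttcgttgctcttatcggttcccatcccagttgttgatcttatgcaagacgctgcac

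In the CXCL8 window an AP-1 match began 137 bases before the start, an NF-kB match 91 and a TATA match 31. The CXCL10 window held an ISRE match at 221 and an NF-kB match at 176 bases before the start, RSAD2 an ISRE match at 145, RAET1L an AP-1 match at 66 and PPP1R15A a CRE match at 58. PTGS2 had a TATA match at 32. Over the 16563 windows of tested genes 5.37% held AP-1, 6.63% NF-kB and 6.52% TATA. Among windows of genes called higher by at least 4-fold the shares were 12.2%, 11.2% and 23.0%, and among those called lower by at least 2-fold 4.03%, 6.11% and 4.95%. ISRE was held by 2.92% of all tested windows and by 3.60% of the strongly rising set, and CRE by 2.69% and 3.60%. Over all 35116 RefSeq windows 7.71% held AP-1, 6.26% NF-kB, 11.5% TATA, 3.57% ISRE, 1.85% CRE, 34.6% CCAAT and 6.89% E2F. These are letter matches only.

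**Figure D3:**
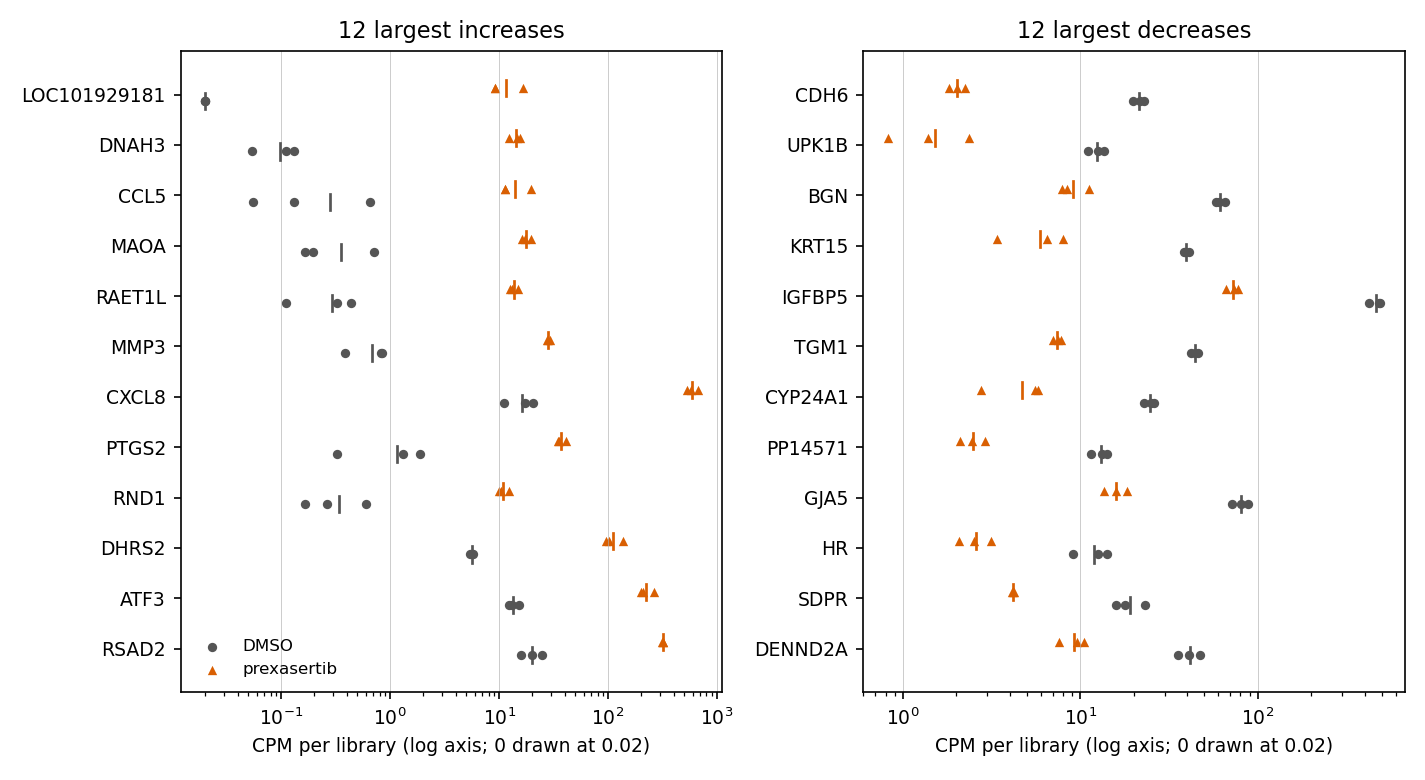
Level in each PEO1 library (CPM, log axis) of the 12 genes with the largest increases and the 12 with the largest decreases among called genes averaging 5 CPM or more, DMSO as grey circles and prexasertib as orange triangles, with vertical ticks at the group means. Genes with overlapping groups were not eligible, and LOC101929181 has 0 counts in DMSO.

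Immediate early transcription factors were higher in 15 of 26 tested and lower in 0. FOS, a subunit of AP-1, read 1.96, 3.75 and 2.47 CPM in DMSO and 43.2, 33.4 and 37.4 CPM with prexasertib (log2 3.79 ± 0.24, adjusted p = 3.83e-07). ATF3, a stress-induced relative (chr1:212565334-212620777, plus strand), went from 15.1, 13.2 and 12.2 CPM to 263, 200 and 209 CPM (log2 4.05 ± 0.17, adjusted p = 5.81e-09). FOSB rose by 3.65, EGR1 by 2.82 and JUN by 1.22, the last pair being chosen after their values were seen. The list had a median log2 change of 0.81, and 18 were higher with the GC and length correction. FOSL1 (log2 -0.33), JUNB (-0.73) and MYC (-0.34), named after their values were seen, were not called.

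In the list of feedback inhibitors of the MAP kinase pathway 12 of 21 tested were higher and 0 lower, with a median of 0.61. DUSP9, of the DUSP family but not in this list, was called lower (log2 -2.03). DUSP1, a phosphatase that switches off the kinases, rose from 11.9, 11.8 and 12.5 CPM to 69.4, 52.6 and 58.4 CPM (log2 2.31 ± 0.18). DUSP10 and DUSP6 rose by 1.81 and 1.39. The count was 7 without DMSO replicate B or without DMSO replicate C. The growth factor ligands EREG, AREG and HBEGF rose by 2.27, 2.05 and 1.36. Of 14 tested EGF receptor ligands and receptors 4 were higher and 3 lower, where 14.7% and 14.6% of all tested genes were. Those lower were the ligand NRG1 and the receptors ERBB2 and ERBB3, named because they were the whole set.

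Part of the p53 target list rose. CDKN1A, which codes for the cell cycle brake p21 (chr6:36676460-36687339, plus strand), was at 6.66, 5.48 and 8.08 CPM in DMSO and at 65.6, 44.0 and 48.0 CPM with the drug (log2 2.96 ± 0.23, 7.79-fold, adjusted p = 2.53e-06). GADD45A, a stress sensor, went from 57.1, 51.4 and 53.2 CPM to 393, 286 and 317 CPM (log2 2.62 ± 0.17). PMAIP1, the pro-apoptotic BH3 protein NOXA, went from 64.6, 71.0 and 81.6 CPM to 355, 289 and 312 CPM (log2 2.14 ± 0.20). Of 26 tested targets 12 were higher and 0 lower, with a median of 0.56. MDM2 (log2 -0.03), BAX (-0.49), FAS (-0.18) and CCNG1 (-0.11) were not called, and were named after their values were seen. With the GC and length correction CCNG1 was called lower at log2 -0.47.

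Survival and death receptor genes moved in both directions. MCL1, an anti-apoptotic BCL2 relative, went from 249, 264 and 246 CPM to 496, 484 and 482 CPM (log2 0.94 ± 0.11, adjusted p = 4.53e-05). TNFRSF10D, a decoy receptor for TRAIL, rose by 2.82, while BOK fell by 1.05, and its log2 change was -0.40 with the GC and length correction. Of 15 tested BCL2 family genes 4 were higher and 3 lower, or 7 and 2 with the correction. Of 17 tested death receptor and caspase genes 5 were higher and 3 lower, with a median log2 change of -0.14. Those lower were TNFSF10, CASP6 and TNFRSF1A, named because they were the whole set. With the correction 2 were higher and 4 lower, and without 1 PEO1 library 3 to 5 were higher. Over all tested genes 14.7% were higher and 14.6% lower.

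Stress response genes rose in part. PPP1R15A, which codes for GADD34 and restores translation after stress (chr19:48872392-48876062, plus strand), read 71.7, 51.5 and 54.3 CPM in DMSO and 521, 404 and 416 CPM with prexasertib (log2 2.92 ± 0.17, adjusted p = 2.01e-07). DDIT3, the CHOP factor, rose by 1.89, though its exons overlap MARS on the other strand. DNAJB9, a chaperone of the endoplasmic reticulum, rose by 1.51. Of 29 tested genes of the ATF4 and unfolded protein response 9 were higher and 4 lower, where 14.7% and 14.6% of all tested genes were. Without DMSO replicate A 5 were higher. The number lower was 6 to 7 under the other scalings, 7 with DESeq2 and 9 with the GC and length correction. Heat shock chaperones were higher in 1 of 16 and lower in 3, in all 25.0%, where 29.3% of all tested genes were called. HSPB1 was down by 1.501 on the log2 scale (-0.95 with the correction). In this list 7 were lower with the correction and 5 with DESeq2. The autophagy genes MAP1LC3B and GABARAPL1 rose by 1.64 and 1.55 and the lysosomal sialidase NEU1 by 1.76. In their list 7 of 26 were higher and 5 lower, where 14.7% and 14.6% of all tested genes were, and the median log2 change was 0.001. Those lower were ATG7, WIPI1, TFEB, CTSB and CTSD, named because they were the whole set. The number lower was 2 without DMSO replicate A and 3 without prexasertib replicate A or prexasertib replicate B.

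Polyadenylated reads from replication-dependent histone genes increased in 21 of 33 tested, with 0 lower and a median of 2.06. These messages normally end in a stem-loop in place of a poly(A) tail, and the library kit is known to select poly(A) RNA. HIST1H2BK (chr6:27138293-27146858, minus strand) went from 4.50, 5.27 and 4.62 CPM to 93.1, 64.2 and 63.3 CPM (log2 3.93 ± 0.24, adjusted p = 2.01e-07). HIST1H2BJ went from 0.783, 0.869 and 0.825 CPM to 9.22, 9.34 and 9.42 CPM. HIST1H4H rose by 3.70. All drug libraries lay above all DMSO libraries in these 3 genes. Histone genes are near-identical copies, and their counts are uncertain for that reason. The count was 13 without DMSO replicate C, and 39 of the 72 histone genes listed did not pass the filter on low counts.

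Many genes that PEO1 barely expressed in DMSO came on. Of 1202 tested genes under a mean of 0.5 CPM in DMSO, 230 (19.1%) were higher with the drug and 11 lower, where 14.7% of all tested genes were higher. A low gene could enter the test through its drug libraries alone, so this share is no evidence of its own. In 223 of the 230 the groups did not overlap, where the same held for 2122 of all 2136 genes called higher. With the drug 164 of them reached 1 CPM, 67 reached 2 CPM, 11 reached 5 CPM and 6 reached 10 CPM. Those 6 were LOC101929181, RND1, DNAH3, CCL5, RAET1L and MAOA. At limits of 0.1 CPM and 1 CPM the counts were 106 and 291 genes higher. With the GC and length correction 221 of the 230 were called higher.

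LOC101929181, an uncharacterised locus (chr1:11609531-11613354, plus strand), had 0 counts in the DMSO libraries and 16.5, 9.07 and 9.17 CPM with prexasertib, at least 200-fold higher with DMSO set to the same floor. LOC729083 (chr3:42770612-42773634, plus strand) had 0 counts and then 6.58, 4.34 and 4.35 CPM, at least 87.9-fold higher, and its exons overlap CCDC13 on the other strand. Neither locus has a described function here. DNAH3, an axonemal dynein heavy chain of motile cilia (chr16:20933111-21159441, minus strand), went from 0.131, 0.0543 and 0.110 CPM to 14.7, 15.7 and 12.4 CPM (log2 7.10 ± 0.75, adjusted p = 2.48e-05). Of 13 tested axonemal dynein and motile cilia genes 4 were higher and 0 lower, and 9 were not called. MAOA, which breaks down serotonin and noradrenaline (chrX:43654907-43746824, plus strand), went from 0.196, 0.706 and 0.165 CPM to 17.3, 19.5 and 16.4 CPM (log2 5.58 ± 0.44). RND1, a small GTPase that loosens the actin skeleton, went from a mean of 0.341 to 10.9 CPM.

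Regulators and tissue-restricted genes were also in this set. NFATC2, a calcium-controlled transcription factor, went from 0.261, 0.326 and 0.385 CPM to 5.46, 8.02 and 6.22 CPM (log2 4.30 ± 0.34). PPARGC1A, a coactivator that drives mitochondrial biogenesis, went from 0, 0.380 and 0.330 CPM to 5.93, 8.85 and 5.19 CPM (log2 4.71 ± 0.56). STC1, a secreted glycoprotein hormone, went from a mean of 0.0362 to 4.51 CPM. TEX14, a germ cell protein of intercellular bridges, and SCN3A, a neuronal sodium channel, rose to means of 6.42 and 4.78 CPM. In all of these the lowest drug library was above the highest DMSO library.

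Fewer genes went off. Of 943 tested genes under 0.5 CPM with the drug, 60 (6.36%) were called lower, where 14.6% of all tested genes were lower, and 7 of the 60 had 0 counts in the drug libraries. The limit of 0.1 CPM gave 17 and that of 1 CPM 108. LGR6, a receptor for R-spondins in the WNT pathway, went from 1.96, 2.28 and 1.81 CPM to 0.176, 0 and 0.0604 CPM (log2 -4.57 ± 0.62, adjusted p = 0.000173). SMR3B, a salivary secreted protein, went from 2.61, 1.52 and 1.04 CPM to 0, 0.110 and 0.121 CPM. KRT4, a keratin of moist squamous epithelia, went from 2.68, 3.04 and 3.02 CPM to 0.529, 0.330 and 0.121 CPM. NOX5, OLFML2B and DUSP9 fell by 2.71, 2.61 and 2.03 on the log2 scale.

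Among called genes that averaged 5 CPM or more over the 6 libraries, CDH6 had the lowest log2 change. CDH6, a cadherin of the kidney and ovarian carcinoma (chr5:31193655-31329146, plus strand), read 22.9, 21.7 and 19.7 CPM in DMSO and 1.82, 2.03 and 2.23 CPM with the drug. It was 10.5-fold lower (log2 -3.40 ± 0.17, adjusted p = 4.33e-08), and no drug library came near a DMSO library. UPK1B, a uroplakin of the urothelial surface, went from 13.7, 12.6 and 11.1 CPM to 0.822, 2.36 and 1.39 CPM. GJA5, which codes for the gap junction protein connexin 40, went from 80.9, 88.6 and 71.9 CPM to 15.97, 18.2 and 13.6 CPM. Of 9 tested cadherins 4 were lower and 0 higher.

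Keratins were lower more often than higher. KRT15, a basal keratin (chr17:41513745-41519018, minus strand), went from 41.1, 38.4 and 39.0 CPM to 3.41, 6.48 and 8.03 CPM (log2 -2.72 ± 0.25, adjusted p = 9.11e-06). KRT8, a keratin of simple epithelia, went from 1692, 1683 and 1706 CPM to 733, 784 and 848 CPM (log2 -1.10 ± 0.13). Its exons overlap those of its partner KRT18 on the other strand. KRT7 fell by 1.07, and its log2 change was -0.52 with the GC and length correction. KRT17 moved up from 3.07, 2.61 and 1.65 CPM to 28.5, 26.5 and 28.2 CPM (log2 3.51 ± 0.29), and KRT6B from a mean of 0.390 to 3.64 CPM. In all 9 of 18 tested keratins were lower and 2 higher, with a median of -0.73, or -0.36 with the GC and length correction, which gave the same counts. TGM1, the transglutaminase that cross-links the cornified envelope, went from 46.2, 44.2 and 42.1 CPM to 7.46, 7.03 and 7.85 CPM. Of 5 tested kallikreins, secreted proteases of epithelia, 4 were lower and 0 higher, with KLK5 down by 1.33. The lineage factor WT1 fell by 1.06, and its exons overlap WT1-AS on the other strand.

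**Figure D4:**
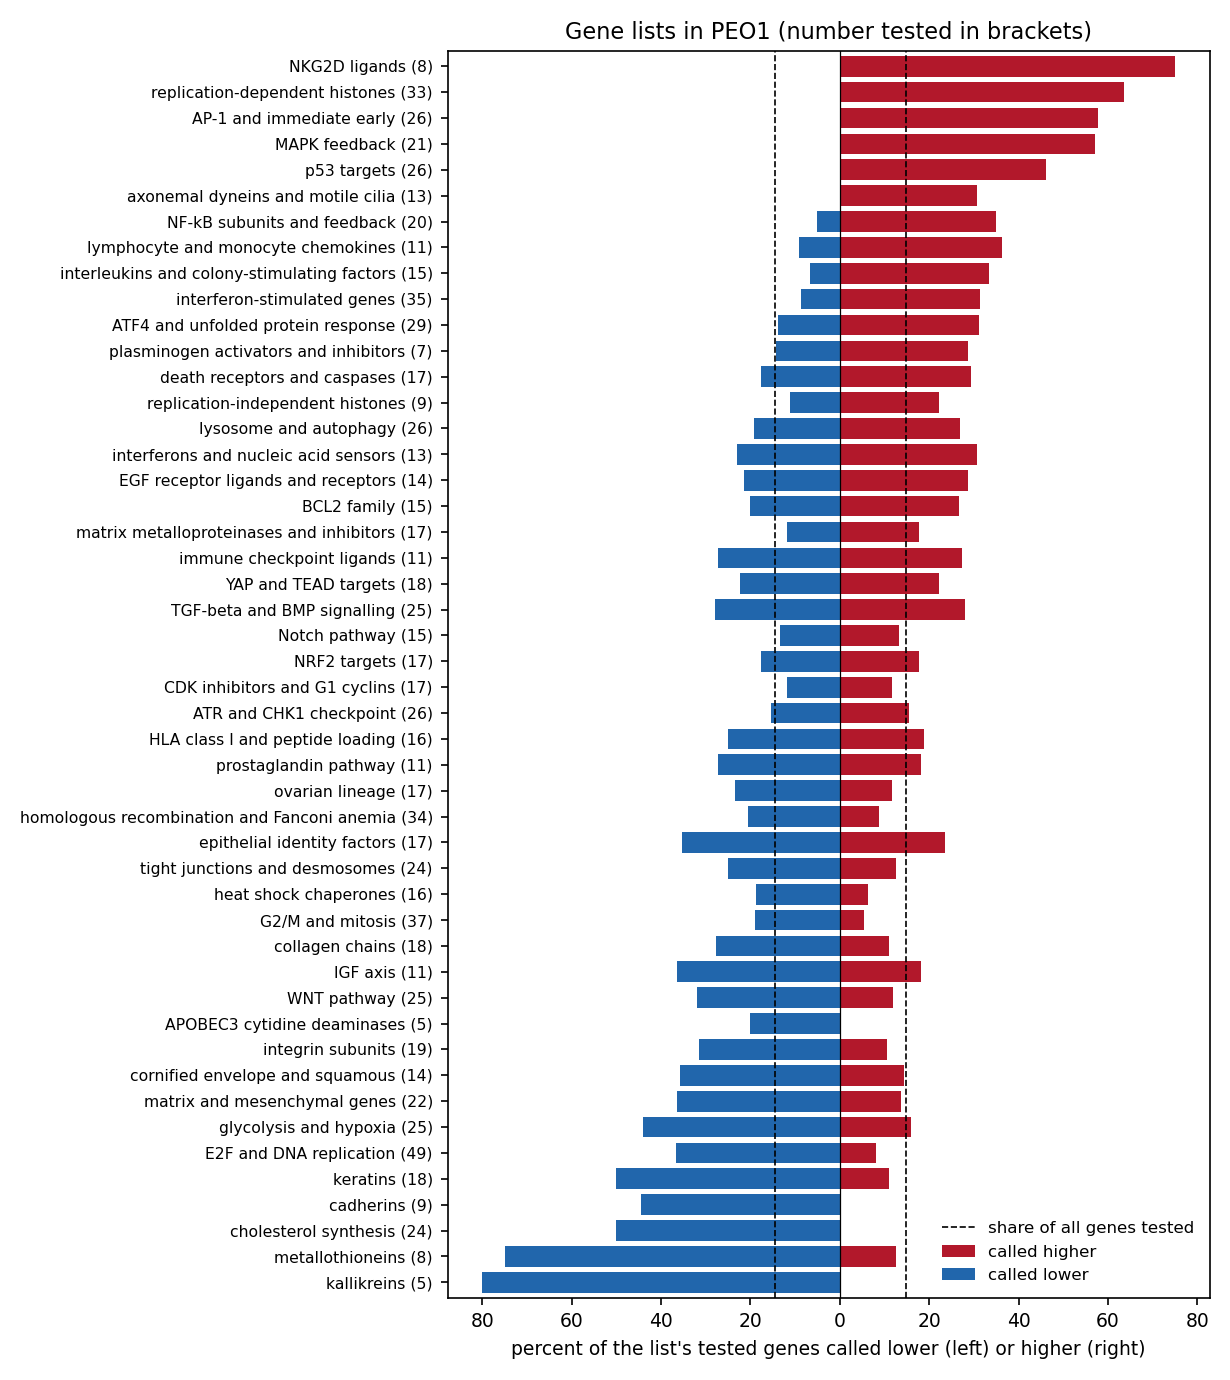
Share of each list's tested genes called higher (red, right) or lower (blue, left) in PEO1 for the 48 lists with at least 5 tested genes, cell type marker lists left out, with dashed lines at 14.7% and 14.6%, the shares of all genes tested. NKG2D ligands, histones, AP-1 genes, MAPK feedback genes and p53 targets stand at the top with no bar to the left, and kallikreins, cholesterol synthesis and cadherins near the bottom with no bar to the right.

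Among matrix, IGF and WNT genes more were lower than higher, and many were not called. BGN, the proteoglycan biglycan, went from 65.3, 58.4 and 60.8 CPM to 8.40, 7.91 and 11.2 CPM (log2 -2.75 ± 0.27). IGFBP5, a binder of insulin-like growth factors (chr2:216672105-216695549, minus strand), went from 483, 490 and 423 CPM to 66.3, 73.9 and 77.1 CPM (log2 -2.68 ± 0.17, adjusted p = 3.25e-07). IGFBP3 fell by 1.32 on the log2 scale and VIM by 1.63, the latter with exons that overlap VIM-AS1. Of 22 tested matrix and mesenchymal genes 8 were lower and 3 higher, with a median of -0.82, and in the IGF axis 4 of 11 were lower and 2 higher. For these lists and the WNT list below, the shares over all tested genes were 14.6% lower and 14.7% higher. The WNT ligands WNT5B and WNT7A fell by 1.89 and 1.55, and 8 of 25 tested WNT pathway genes were lower and 3 higher, LGR5, FZD7 and DKK1, named because they were the whole set. Leaving out any 1 of the 6 PEO1 libraries left 0 or 1 gene of the list called higher. The other large decreases were CYP24A1, the vitamin D hydroxylase, from 22.8, 26.2 and 24.9 CPM to 2.76, 5.77 and 5.55 CPM, and DENND2A, from 47.5, 35.6 and 41.1 CPM to 10.5, 7.64 and 9.54 CPM. SDPR, a caveolar coat protein, HR, a nuclear receptor corepressor, and PP14571 fell by 2.19, 2.20 and 2.38.

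Of the enzymes of sterol synthesis and glycolysis, part were lower. MVD, of the mevalonate steps, fell by 1.23 on the log2 scale, and its log2 change was -0.65 with the GC and length correction. Of 24 tested genes of cholesterol synthesis 12 were lower and 0 higher, with a median of -0.47, and 16 were lower with the correction. HK1, a hexokinase, went from 145, 146 and 139 CPM to 67.8, 81.1 and 73.8 CPM (log2 -0.95 ± 0.11). In the glycolysis and hypoxia list 11 of 25 were lower and 4 higher, where 14.6% and 14.7% of all tested genes were. Among those higher was the vasodilator ADM at log2 1.42. The number higher was 2 without DMSO replicate A or without prexasertib replicate C. Metallothioneins, which bind zinc and copper, were lower in 6 of the 8 genes tested in their list, with MT1M going from 62.5, 49.3 and 58.6 CPM to 19.7, 15.7 and 18.2 CPM. The 1 gene called higher there was the zinc exporter SLC30A1 at log2 1.19, which was not called with the GC and length correction.

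Of the kinase genes the drug acts on, CHEK1 was not called and CHEK2 was called lower by a narrow margin. CHEK1, which codes for CHK1, read 77.9, 86.6 and 74.0 CPM in DMSO and 67.5, 72.9 and 70.9 CPM with prexasertib (log2 -0.17 ± 0.12, adjusted p = 0.285), and with the GC and length correction it was called lower at log2 -0.41 (adjusted p = 0.0451). CHEK2 read 16.3, 19.2 and 14.5 CPM and 10.8, 10.6 and 14.2 CPM (log2 -0.49 ± 0.17, adjusted p = 0.0488). That call was lost without DMSO replicate A (adjusted p = 0.0653), DMSO replicate B (0.136), prexasertib replicate A (0.102) or prexasertib replicate B (0.124). WEE1, the kinase that restrains CDK1, was not called (log2 -0.02 ± 0.16). CDC25A, the phosphatase that CHK1 marks for destruction, went from 49.3, 40.01 and 37.1 CPM to 63.2, 65.0 and 57.9 CPM (log2 0.56 ± 0.13, adjusted p = 0.00628), and missed the threshold without DMSO replicate B (adjusted p = 0.0511) or DMSO replicate C (0.0615). Of 26 tested genes of the ATR and CHK1 checkpoint 4 were higher and 4 lower, in all 30.8%, where 29.3% of all tested genes were called. Leaving out any 1 of the 6 PEO1 libraries gave 1 to 3 higher and 2 to 4 lower. Each such fit moved at least 1 of these counts by over 1.5 times.

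Replication genes were lower more often than higher. POLD1, the catalytic subunit of polymerase delta, went from 25.5, 19.7 and 34.9 CPM to 9.10, 8.02 and 10.3 CPM (log2 -1.55 ± 0.23), or log2 -0.89 with the GC and length correction. LIG1, the ligase of Okazaki fragments, fell by 1.17 and CCNE1, cyclin E1, by 0.55. E2F7, a repressor of the E2F programme, rose from 20.6, 24.8 and 31.7 CPM to 47.3, 62.7 and 48.3 CPM (log2 1.04 ± 0.21). Of 49 tested genes 18 were lower and 4 higher, with a median of -0.28. Mitotic genes were lower in 7 of 37 and higher in 2, where 14.6% of all tested genes were lower, with PLK1 at 175, 175 and 177 CPM against 81.2, 90.5 and 96.2 CPM (log2 -0.97 ± 0.12) and CDC20 down by 0.79 (log2 -0.47 with the GC and length correction). PLK1 exons overlap ERN2 on the other strand. With the correction 14 mitotic genes were lower and 3 higher. The proliferation marker MKI67 was not called (log2 0.28 ± 0.18, adjusted p = 0.263).

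BRCA2, which acts in the repair of broken DNA by homologous recombination (chr13:32315480-32399672, plus strand), rose from 2.42, 5.65 and 6.65 CPM to 17.8, 20.3 and 16.3 CPM. The groups do not overlap, and the change was 3.67-fold (log2 1.88 ± 0.41, adjusted p = 0.00389), or log2 1.46 with the GC and length correction. BRCA1 read 98.9, 122 and 121 CPM and 80.98, 118 and 93.9 CPM, and was not called (log2 -0.23 ± 0.16, adjusted p = 0.317), though with the GC and length correction it was called lower at log2 -0.46. Of 34 tested homologous recombination and Fanconi anemia genes 3 were higher and 7 lower, in all 29.4%, where 29.3% of all tested genes were called. The number lower was 4 without DMSO replicate C or without prexasertib replicate A. With the GC and length correction 11 were lower.

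Zinc finger genes whose symbols start with ZNF, a grouping chosen after the results were seen, were higher more often than lower. Of 502 tested, 215 (42.8%) were higher and 10 lower, with a median log2 change of 0.67. Their median GC content was 43.3%, against 48.3% over all tested genes. With the GC and length correction 212 were higher and 9 lower, with a median of 0.53. On chromosome 19, which carries many of them in clusters, 126 of 241 were higher and 2 lower. Among whole chromosomes the share called lower was highest on chromosome 22, at 26.9% with 6.17% higher, and on chromosome 16, at 22.4% with 10.2%. Those chromosomes have a median transcript GC of 56.3% and 55.2%. With the correction 64 genes of chromosome 22 were lower and 51 higher, where the uncorrected counts were 87 and 20. Genes with LOC, LINC or antisense names, a further such grouping, were higher in 79 and lower in 16 of 702, in both directions a smaller share than the 14.7% and 14.6% of all genes tested.

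The change in PEO1 was larger than in COV362 for many of these genes. In COV362, 120 genes (0.828%) were called in all, and the difference between the changes in the lines was called for 885 (6.10%), with 455 higher in PEO1 (3.14%) and 430 lower (2.97%). COV362 DMSO replicate A held 9390790 counts, the fewest of the 12 libraries, and the part of depth in these counts of genes was not tested. The difference was called for 328 genes without PEO1 DMSO replicate A, 419 without DMSO replicate B, 388 without DMSO replicate C, 406 without prexasertib replicate A and 353 without prexasertib replicate B. Of the 2136 genes higher in PEO1 the difference was called higher for 429, and of the 2113 lower it was called lower for 412. For most PEO1 calls it was not called, and the count of calls in each line does not test the difference. Both lines called 71 genes higher and 21 lower.

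ANKRD1, a nuclear cofactor known as a YAP target, went from 8.03, 8.09 and 6.54 CPM to 109, 102 and 96.4 CPM in PEO1 and changed by log2 -0.21 in COV362, a difference of 3.97 ± 0.19 (adjusted p = 1.35e-07). For CXCL8 the difference was 2.997 ± 0.34, for IFIT2 2.81 ± 0.21, for NFATC2 3.99 ± 0.42 and for CDH6 -2.06 ± 0.22. CDKN1A rose in both lines, by 1.41 ± 0.31 more in PEO1 (adjusted p = 0.0213). DHRS2, a dehydrogenase, rose from 5.61, 5.43 and 5.77 CPM to 136, 101 and 95.7 CPM in PEO1 (log2 4.30 ± 0.30) and by 3.82 in COV362, and the difference of 0.48 ± 0.85 was not called (adjusted p = 0.77). IL11 rose by 2.69 in COV362, with a difference of 0.77 ± 0.51 that was not called.

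Opposite calls in the lines were few. EHF, an epithelial ETS factor, rose by 1.02 in PEO1 and fell by 1.37 in COV362, and the difference of 2.38 ± 0.29 was called (adjusted p = 0.000915). The other such gene called higher in PEO1 was SOX4, and those lower in PEO1 and higher in COV362 were LSR, FHL2 and NPR3, all 4 named because they were the whole set. With the GC and length correction LSR was not called in PEO1 (log2 -0.16). The PEO1 call of NPR3 was lost in 5 of the 6 fits without 1 PEO1 library. Of the 230 genes that came on from under 0.5 CPM, 129 were also under that level in COV362 DMSO, 2 of the 230 (IL11 and RFPL4A) were called higher in COV362, and 50 had a difference called higher in PEO1.

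**Figure D5:**
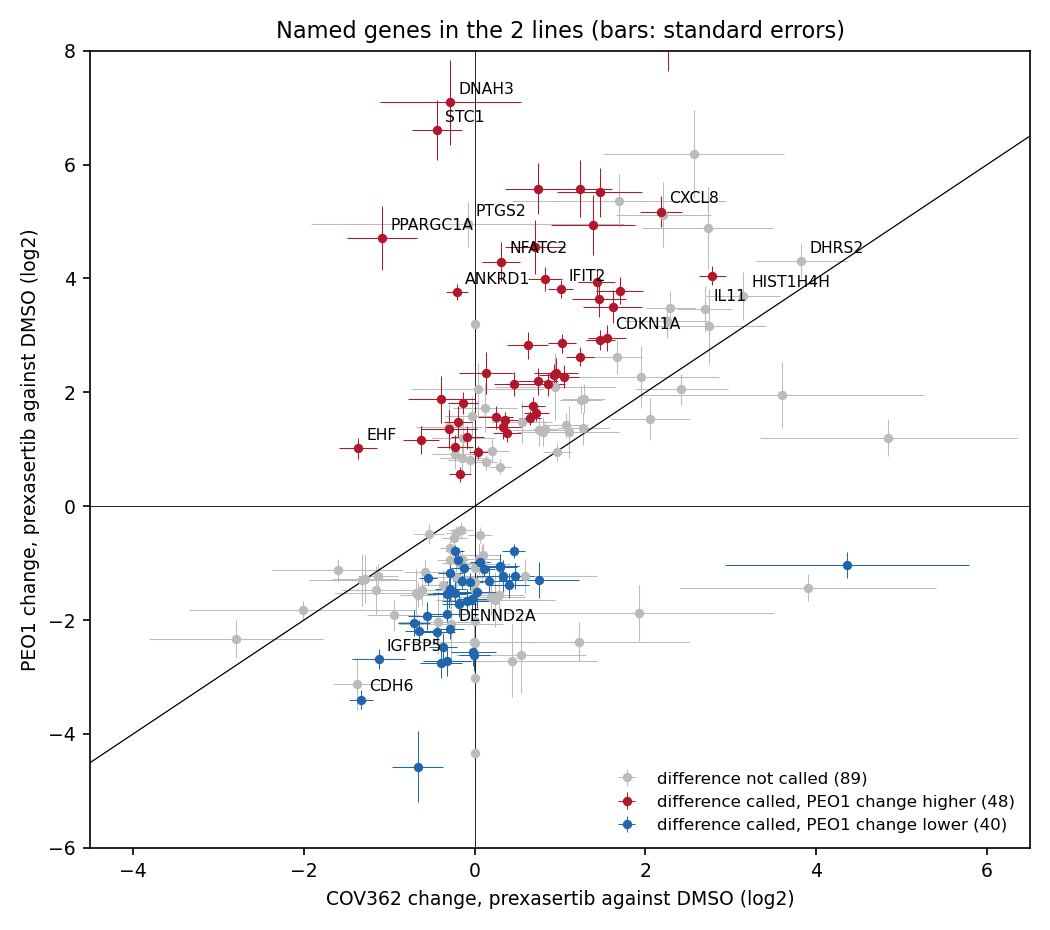
Log2 change with prexasertib in COV362 (x axis) against PEO1 (y axis) for 174 of 177 called genes named by the rule, 3 lying outside the range drawn, with bars for standard errors and the line of equal change. Red and blue points, 48 and 40 of the 177, have a difference between lines that was called, and ANKRD1 and STC1 lie high in PEO1 and near 0 in COV362. Genes with 0 counts in all COV362 libraries, such as KLK5 and CDH11, are drawn at 0 on the x axis with no bar. For those genes no COV362 change and no difference between lines could be measured.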

How the data were processed

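Column-purified RNA went into Illumina TruSeq v2 libraries, per the labels' protocols, and that kit does not mark strand. The authors deposited 1 table of unnormalized counts, with 26485 genes and 12 libraries, made with STAR and featureCounts 1.4.6 (Subread) on hg38, per the submitters' processing notes. How multi-mapping reads were counted is not given in the sources used here. Replicates A, B and C come from the labels, and nothing there says they were separate cultures, so p-values measure only the spread between these libraries.

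From the counts, edgeR 4.0.16 in R 4.3.3 fitted 4 group means to all 12 libraries (8 residual degrees of freedom) after filterByExpr (minimum count 10, minimum total 15) and TMM scaling. The quasi-likelihood test was BH-adjusted over 14498 genes with a threshold of 0.05. The difference between lines was a contrast in the same fit. CPM are scaled by library size and TMM factor, ± on log2 changes is the standard error, and floors of 3 counts cover counting error only. GC content came from the longest GENCODE transcript of each symbol, for 94.5% of tested genes. The fit was tested on simulated counts drawn independently from its own estimates of spread. They held no GC trend and no letter effect, so that test does not show how calls behave under either. DESeq2 1.42.0 and limma 3.58.1 were alternatives. The members, the 54 lists and the rules were chosen with earlier results of these data known.

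Named genes were the 12 largest increases and 12 largest decreases at a mean of at least 5 CPM without overlap, the 15 highest among those that rose from under 0.5 CPM, the 10 highest among those that fell below it, the 3 largest changes per list at a mean of at least 1 CPM, and a fixed group of checkpoint, cell cycle, BRCA and interferon genes. Some genes are not reported here. Further genes with values are said to be chosen later or come from the counted lists.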

Additional observations from a re-analysis of the deposited data

Results flagged for a closer look

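The effect of prexasertib differed between PEO1 and COV362, by the test of the difference itself, in 8 named genes with the smallest adjusted p-values for that difference. The log2 change in PEO1 minus that in COV362 was 3.97 for ANKRD1, 2.81 for IFIT2, 3.17 for RSAD2, 7.05 for STC1, -2.06 for CDH6, 3.99 for NFATC2, 2.997 for CXCL8 and -1.88 for DENND2A. PPARGC1A, with a difference of 5.79, tied with DENND2A at an adjusted p of 0.000857. Each had a BH-adjusted p below 0.05 in edgeR's quasi-likelihood test over all genes. No group held enough libraries for a test of single outlying samples.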

How the results depend on the processing

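Depth limits the low genes, whose folds rest on few counts. None of the 177 named called genes reversed under any alternative run, and the length and GC correction and the fit with it and the block were chosen after seeing the data. Leaving out 1 PEO1 library kept 158 to 165 of these calls, DESeq2 176, limma-voom 175, RLE scaling 176 and the length and GC correction 171. No scaling factors moved the share of calls that were higher from 50.3% to 52.5%, RLE to 46.1%.

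PEO1 calls were 3011 to 3361 without 1 library (1358 to 1508 higher, 1635 to 1887 lower), against 4249, and without replicate A of all groups 4900 (2506 and 2394). The difference between lines gave 328 to 591, against 885, and 1130 without replicate A of all groups. An adjusted p under 0.01 gave 2319 calls (1185 higher, 1134 lower), 124 genes coming on and 15 going off, and 157 for the difference. A minimum change of 1.5-fold gave 1087 (640 and 447), 143, 19 and 83. DESeq2 called 1966 for the difference. Limits of 0.1 CPM gave 106 coming on and 17 going off, and 1 CPM gave 108 going off.

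With the replicate block 7446 genes were called (3746 higher, 3700 lower, 102 going off) and 4906 for the difference. The block in the 6 PEO1 libraries alone gave 7754 (3870 and 3884), and the replicate block with the length and GC correction 6998 (3360 and 3638), and 3510 for the difference. Letters are not stated to pair libraries, and the main fit left them out. In PEO1 same-letter deviations from the group mean correlated at 0.302, 0.171 and 0.0813 for A, B and C, but DMSO C stood closest to prexasertib B at 0.222. In COV362 they correlated at 0.410, 0.423 and 0.133, and each DMSO library stood closest to its own letter. Prexasertib C there stood closest to DMSO B at 0.138. Deviations followed exon length with rho of -0.41 to -0.35 in replicate A of the 4 groups and 0.13 to 0.44 in replicate B. Replicate C gave -0.05 to 0.32. What the letters share was not tested. The block kept 4248 of the 4249 calls.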
